A study of Mus musculus with 36 samples.

Results

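The Shox2 window is the stretch of mouse chromosome 3 from 66000000 to 67300000 (mm9), which holds Shox2 near 66.78 Mb, the neighbouring gene Rsrc1 and the flanking gene desert. Its members are the H3K27ac peaks of 18 libraries that overlap this 1.3 Mb, 671 of the 732259 peaks in all lists. Merged over libraries, they gave 54 of the 63594 consensus regions of the genome, where a consensus region is a stretch covered by peaks of at least 2 libraries. A further 10 peaks of the window lay in no consensus region. The window was set by the position of Shox2, and no peak value entered the choice of peaks.

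Shox2 encodes a homeodomain transcription factor of the short stature homeobox family. It is expressed in the proximal limb bud, and mice that lack it there have a severely shortened upper arm and thigh. Its limb expression is known to draw on distal enhancers, and hs1262, the element removed in a mouse line of the series, is known as a limb enhancer of Shox2. Acetylation of histone H3 at the residue read here marks active promoters and enhancers, and broad domains of it often lie over genes of developmental regulators.

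All libraries were made by ChIP-seq with an anti-H3K27ac antibody from pooled forelimbs of untreated FVB embryos at embryonic day 11.5. The groups were enhancer-null forelimbs of the lines mm1179 KO (4 libraries), hs72 KO, hs1262 KO, hs1467 KO, hs1586 KO and hs1603 KO (2 libraries each), and wild-type (WT) forelimbs (4 libraries). The labels do not say whether the libraries of a group came from separate pools of embryos, so p-values measure only the spread between libraries, which may be technical. The lists carried run tags that the labels do not give. Run 1 held mm1179 KO 1 and 2 with WT 1 and 2, and run 2 held mm1179 KO 3 and 4 and hs72 KO 1 and 2 with WT 3 and 4. Run 3 held replicate 1 and run 4 replicate 2 of the lines hs1262, hs1467, hs1586 and hs1603, and neither held a WT library, so run and genotype cannot be told apart when those lines are set against WT. The lists ranged from 26550 to 58753 peaks, the shortest in run 3 and the longest in run 4. They give no read counts, so depth is unknown, and a region without a peak is one that was not called. The tissue label could not be checked against limb marker genes, because no mm9 annotation was used here, and for the same reason no region is assigned to a gene other than Shox2.

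The promoter of Shox2 is shown because the given position of the gene, near 66.78 Mb, lies in the widest acetylated domain of the window. That region is called the promoter domain by this position, and the annotated start was not placed in mm9. The sequence is that of RefSeq (GRCm38.p6, minus strand of chromosome 3), the 250 bases before the annotated start, 5′ to 3′. Capitals mark the matches found among 6 motifs searched on both strands, TATAAA at position -203 and CCGCCC, the reverse complement of GGGCGG, at position -68 counted from the start.
Shox2 promoter: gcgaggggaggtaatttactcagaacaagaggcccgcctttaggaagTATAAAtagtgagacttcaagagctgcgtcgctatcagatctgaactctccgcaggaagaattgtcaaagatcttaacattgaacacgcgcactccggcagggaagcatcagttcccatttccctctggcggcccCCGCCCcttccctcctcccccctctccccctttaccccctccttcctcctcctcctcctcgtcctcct
TATAAA occurred in 12.4% and GGGCGG in 32.7% of the 32851 promoters of the same length in the table. No match was found in these letters for the CCAAT box, held by 33.8% of promoters, for the homeodomain core TAATTA (4.84%), for the E-box CACGTG (6.02%) or for the GLI core GGGTGGTC (0.703%). The Shox2 promoter had 55.6% G and C, against a median of 52.4% over all promoters, and 11 CpG dinucleotides, against a median of 6. Its last 100 bases held 86 pyrimidines on the coding strand, a count that 0.116% of promoters reached and that was looked at after the sequence had been read. The median promoter had 50. In the RefSeq gene order, the protein-coding neighbours of Shox2 are Ptx3, Veph1, Ccnl1 and Lekr1 on the side of lower coordinates, and Rsrc1, Mlf1, Gm52606, Gfm1 and Lxn on the side of higher coordinates.

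Shox2 sat in the widest consensus region of the window, a promoter domain of 23.787 kb on chromosome 3 from 66767439 to 66791225. It was the 80th widest of the 63594 consensus regions of the genome, so that 0.126% of them were at least as wide. The window held 2 regions of 10 kb or more, and the next in width, of 10701 bp, lay 579.936 kb below the domain. The median width was 2800 bp in the window, against 2339 bp over the genome. Distal regions, here all regions other than the domain, were spread unevenly around it. Some may be promoters of other genes of the window, which was not checked, so distal does not mean enhancer. On the side of lower coordinates, which is downstream of Shox2 if its annotated orientation holds in mm9, 767.439 kb carried 41 regions with a summed width of 134.623 kb. On the side of higher coordinates, 508.775 kb carried 12 regions with a summed width of 26.245 kb. Of the 41 regions below the domain, 12 were called in all 18 libraries and 16 in all 4 WT libraries, while of the 12 above it the counts were 0 and 1. Over the genome the shares were 16.5% and 36.4%, and 12 regions are few to set against them. The 1 region above, 67264999 to 67268864, had no peak in run 3 and so could not count among those called in all 18.

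**Figure D1:**
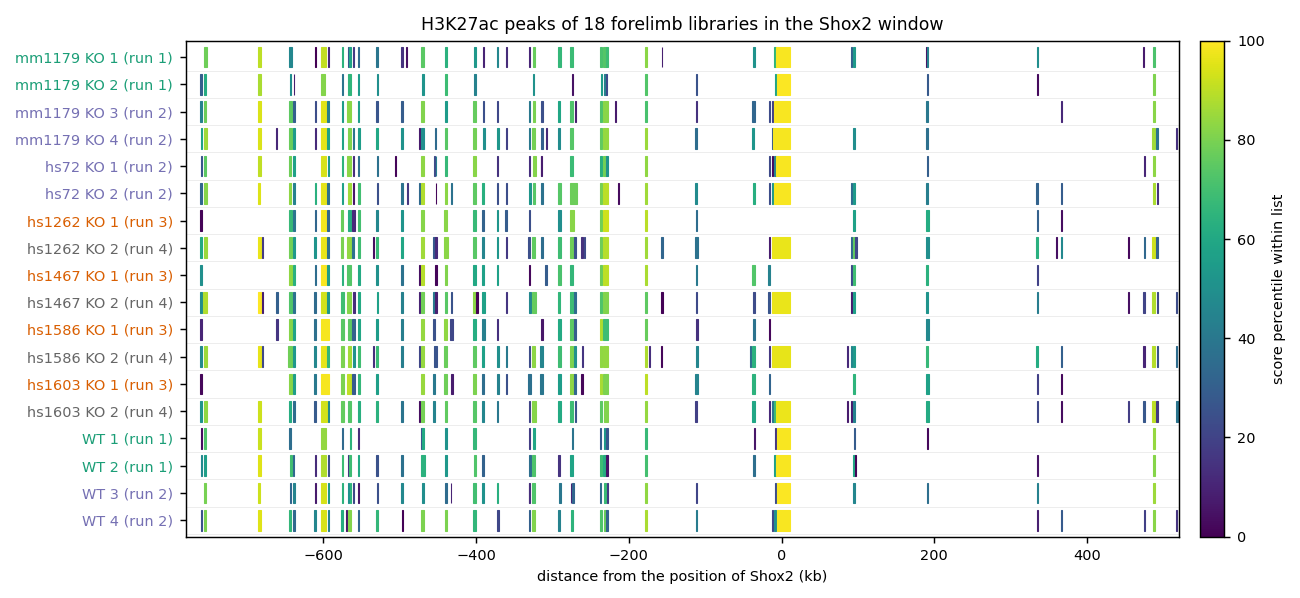
Every peak of the Shox2 window in the 18 libraries, drawn to scale by its distance from the position of Shox2 (kb); rows are libraries, the colour of a row label gives its run, and the colour of a peak gives its score percentile within its own list. The broad block at 0 is present in 14 libraries and missing in the 4 of run 3, and most distal peaks lie on the left, the side of lower coordinates.

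The domain was called in 14 of 18 libraries, and its widest peak came in 3 forms that shared an upper end. That peak spanned 17.842, 17.248, 21.706 and 21.801 kb in mm1179 KO 1 to 4, against 17.323, 17.640, 17.547 and 17.612 kb in WT 1 to 4. It spanned 17.713 and 21.362 kb in hs72 KO 1 and 2. In the run 4 libraries it spanned 23.796 kb in hs1262 KO 2, 23.454 kb in hs1467 KO 2, 23.863 kb in hs1586 KO 2 and 17.772 kb in hs1603 KO 2. The 4 WT widths were close together, and mm1179 KO 1 and 2, hs72 KO 1 and hs1603 KO 2 were next to them. The peak was wider in mm1179 KO 3 and 4, hs72 KO 2 and the other 3 run 4 libraries. The upper end lay between 66790742 and 66791242 in all 14 libraries, a range of 500 bp. The lower end fell into 3 places. In 8 libraries, including all 4 WT libraries, the peak began between 66773187 and 66773528. In mm1179 KO 3, mm1179 KO 4 and hs72 KO 2 it began between 66769425 and 66769527, and in hs1262 KO 2, hs1467 KO 2 and hs1586 KO 2 between 66767240 and 66767673. Where the peak was short, smaller separate peaks usually filled part of the difference. WT 4, for instance, had peaks of 1203 and 2547 bp and hs1603 KO 2 peaks of 2016 and 3695 bp at the lower end of the domain. Part of the difference in width is thus a split of the same stretch into separate peaks. In hs1603 KO 2 it is nearly all, since its peaks together covered 23.483 kb of the domain. The other run 4 libraries covered 23.779 kb in hs1262 KO 2, 23.454 kb in hs1467 KO 2 and 23.664 kb in hs1586 KO 2.

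**Figure D2:**
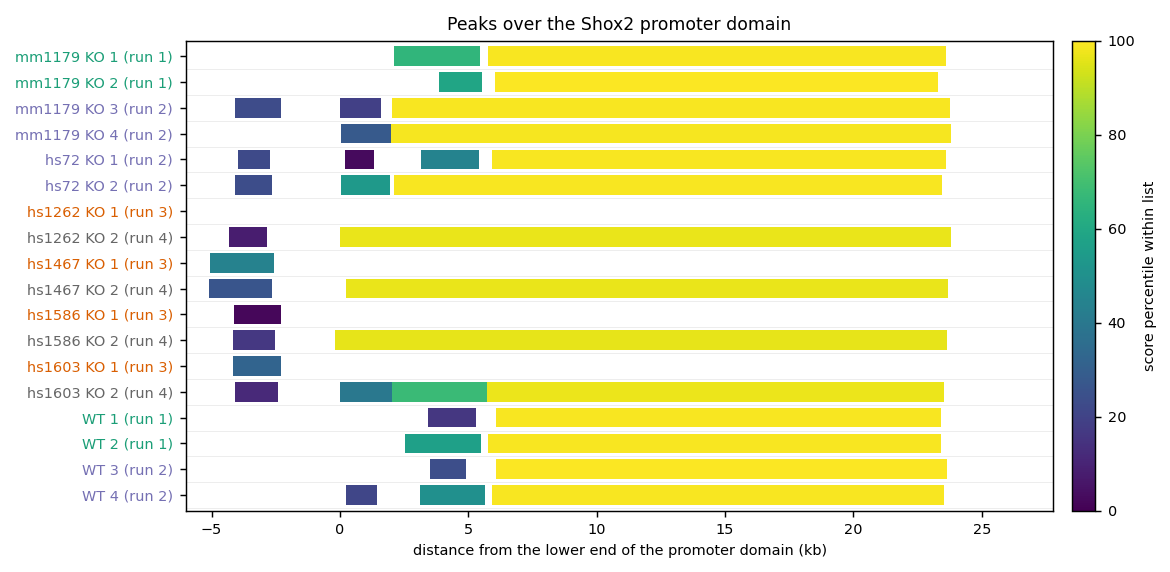
Peaks over the Shox2 promoter domain in the 18 libraries, by distance from the lower end of the domain (kb), with colour giving the score percentile within the list. The upper end is shared, the lower end of the widest peak falls in 3 places, and the run 3 rows hold no peak inside the domain.

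Within their lists, these peaks were among the widest and the highest scoring. The width percentile was between 99.87 and 99.96 in the 14 libraries, with ranks from 12th in mm1179 KO 2 to 70th in hs1603 KO 2. The score percentile was 98.5 to 99.5 in mm1179 KO libraries, against 99.1 to 99.4 in WT libraries. It was 98.9 and 99.2 in hs72 KO libraries and 96.5 to 96.9 in the 4 run 4 libraries. The authors' score was exactly 3100 in all 14 lists, a value shared by 289 to 567 peaks of each run 1 list, 398 to 1204 of each run 2 list and 3037 to 3629 of each run 4 list. The percentile of the domain therefore follows how many peaks a list holds at that value, and the lower percentiles of run 4 are not lower scores. The domain alone had the highest score of the window in 11 libraries and shared it in hs1262 KO 2 and hs1586 KO 2. In hs1467 KO 2, a distal peak in the region 66094468 to 66098284 scored higher, at 3128.39.

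In run 3 the domain had no peak in any of the 4 libraries, hs1262 KO 1, hs1467 KO 1, hs1586 KO 1 and hs1603 KO 1. The nearest peaks left uncalled stretches of 203.751 kb in hs1262 KO 1, 106.340 kb in hs1467 KO 1, 204.030 kb in hs1586 KO 1 and 107.761 kb in hs1603 KO 1. Peaks stood 2.573, 2.282 and 2.279 kb below the domain in the hs1467, hs1586 and hs1603 libraries, while in hs1262 KO 1 the nearest one below was 97.715 kb away. The run 4 libraries of the same lines all called the domain. The window was not empty in run 3, where a list held 29 to 34 peaks of it, against 45 to 52 in run 4. Of the 17 regions called in all 14 other libraries, 12 were called in all 4 run 3 libraries, or 70.6%, against 55.2% of such regions in the genome. The other 5, or 29.4%, were called in none of the 4, against 23.5% in the genome. With peaks scoring under 100 left out it was 5 of 9, against 31.9% in the genome, and with 50% of a region needed for a call it was 4 of 8, against 27.2%. The 5 regions were the promoter domain and the regions 66023262 to 66027237, 66094468 to 66098284, 66453246 to 66457838 and 67264999 to 67268864. Their median percentiles over the 14 libraries of the other runs were 76.7 to 99.1, against 55.5 to 93.9 over the same libraries for the 12 that run 3 called, so they were not the weakest of the 17. In width they ran from 3817 to 23787 bp with a median of 3976 bp, against 2805 to 10701 bp with a median of 4013 bp. Run 3 lists also held 1 to 59 peaks at a score of 3100, against at least 289 in each other list. Why run 3 lacks these peaks was not tested, and any statement about the domain in the lines hs1262, hs1467, hs1586 and hs1603 rests on the run 4 library of each.

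**Figure D3:**
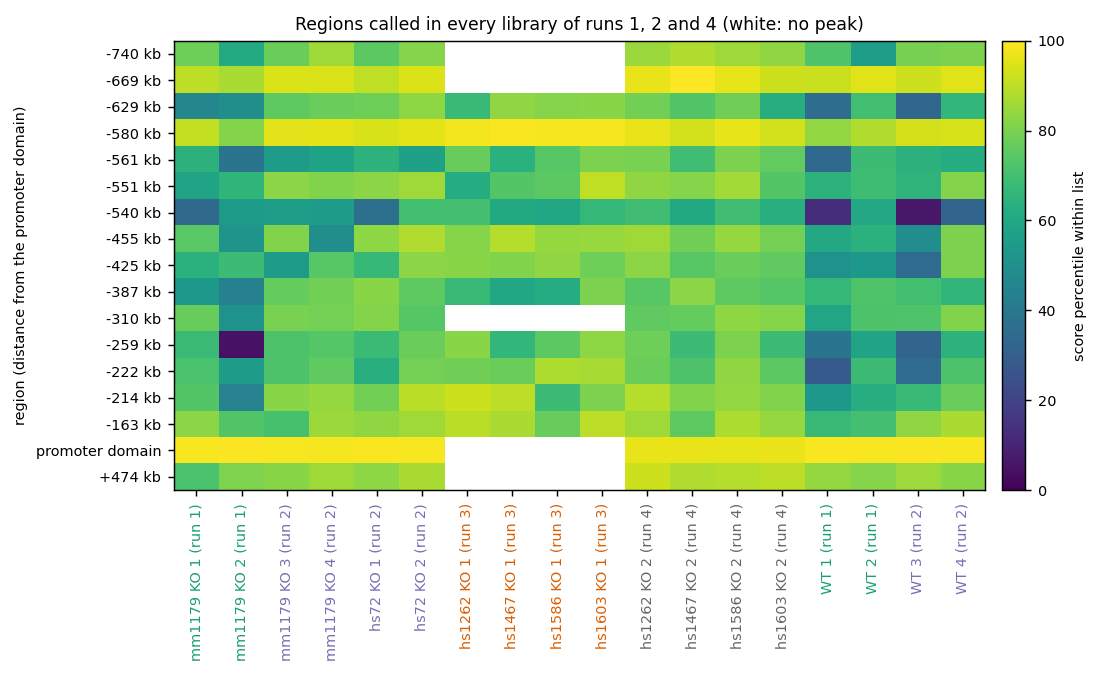
Score percentile within the list (colour) of the 17 regions called in every library of runs 1, 2 and 4, ordered by position, with columns for KO libraries by run and then WT libraries. White cells mark no peak: 5 regions, among them the promoter domain, are white in all 4 libraries of run 3, and the other 12 are filled in all 18 libraries.

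The distal regions with the highest score percentile in WT forelimbs lay mostly below Shox2, as did most distal regions of the window. Of the 10 with the highest mean over the 4 WT libraries, 9 were on the side of lower coordinates, between 163.171 and 740.202 kb from the domain. All distal regions numbered 41 below the domain and 12 above it, and those called in all 4 WT libraries 16 and 1. The side of the 10 is thus no trait of high rank. Of the 10, 6 were called in all 18 libraries. The highest was the region 66094468 to 66098284, 669.155 kb below the domain. Its percentile was 87.3 to 94.5 in mm1179 KO libraries, 90.6 and 94.7 in hs72 KO libraries and 92.5 to 99.8 in the run 4 libraries, against 92.0 to 95.1 in WT libraries, and it had no peak in run 3. These ranges overlap. The second, and the widest distal region, was 66176803 to 66187503, 10701 bp wide and 579.936 kb below the domain. It was called everywhere, at percentiles of 81.4 to 95.9 in mm1179 KO libraries, 94.1 and 95.9 in hs72 KO libraries, 98.3 to 98.9 in run 3 and 93.2 to 96.7 in run 4, against 83.7 to 94.1 in WT libraries. In the 4 run 3 libraries, which lack the domain and the region ranked first, it held the highest score of the window. Only percentiles within lists of different lengths are available, so these orders describe each list and show no change between genotypes.

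The one region of the 10 above the domain was 67264999 to 67268864, 473.774 kb away. Its percentile was 71.7 to 85.8 in mm1179 KO libraries and 82.9 and 87.3 in hs72 KO libraries, against 81.9 to 85.3 in WT libraries, and it was 88.1 to 92.5 in run 4. The region nearest to Shox2 among the 10 was 66600885 to 66604268, 163.171 kb below the domain, at 71.0 to 85.1 in mm1179 KO libraries, against 67.4 to 87.4 in WT libraries. It was called in all 18 libraries. The remaining 6 were 66023262 to 66027237, 66453246 to 66457838, 66211524 to 66216688, 66376180 to 66380186, 66546394 to 66553169 and 66308122 to 66312285, with mean WT percentiles from 63.3 to 72.1. The first 2 of these were missing in run 3 and the other 4 were called in every library. Spread was wide within a genotype: in the last of them the percentile ranged from 49.4 to 81.2 in mm1179 KO libraries, against 49.0 to 80.1 in WT libraries.

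The number of window regions called differed widely between libraries. A library called from 22 of the 54 regions in WT 1 to 48 in hs1586 KO 2. The counts were 33, 23, 33 and 39 in mm1179 KO 1 to 4, against 22, 29, 31 and 30 in WT 1 to 4. They were 28 and 42 in hs72 KO libraries, 28 to 34 in run 3 and 42 to 48 in run 4. The longer run 4 lists placed a smaller share of their peaks in the window, 0.0828% to 0.0912%, against 0.0985% to 0.126% in run 3. All 18 libraries called 12 regions, or 22.2%, against 16.5% in the genome, and all 4 WT libraries called 18, or 33.3%, against 36.4%. Regions called in knockout libraries only numbered 17, or 31.5%, against 23.5% in the genome, and there were 14 knockout libraries to 4 WT libraries. Run 4 alone called 4, or 7.41%, against 7.66% in the genome. At the other end, 12 regions were called in 5 or fewer libraries, or 22.2%, against 29.4% in the genome. Each of the 10 peaks outside the consensus regions was called in a single library at a percentile of at most 36.3.

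The amount of acetylated sequence in the window did not pass the test between mm1179 KO and WT forelimbs in any of 4 measures, all of which had the higher mean in mm1179 KO. The enhancer mm1179 is known to act on Gli3, on another chromosome, so this comparison asks whether the Shox2 window differs in a line whose deletion lies elsewhere. Peaks numbered 39, 25, 36 and 41 in mm1179 KO 1 to 4, against 25, 33, 37 and 35 in WT 1 to 4. They covered 102.901, 66.446, 116.559 and 133.247 kb in mm1179 KO 1 to 4, against 68.430, 94.493, 90.446 and 100.954 kb in WT 1 to 4. The groups overlapped, with mm1179 KO 2 the lowest of all 8 in covered length and mm1179 KO 4 the highest. The mean was 104.8 ± 28.4 kb in mm1179 KO and 88.6 ± 14.1 kb in WT (SD, n = 4 each), a difference of 16.2 kb (two-sided exact permutation, p = 0.343). After Benjamini-Hochberg adjustment over 4 such exact tests this was 0.457, and 0.0286 is the lowest value within reach of this design. Within run 1 the difference was 3.21 kb and within run 2 it was 29.2 kb, with exact permutation p of 1 and 0.333 (n = 2 each), where 0.333 is the smallest possible. Without mm1179 KO 2 the difference was 29.0 kb with an unadjusted exact permutation p of 0.0286, the lowest within reach of 3 against 4 libraries. The count of peaks was 35.25 ± 7.14 in mm1179 KO and 32.5 ± 5.26 in WT (SD, n = 4 each), with an exact permutation p of 0.543 and an adjusted value of 0.543.

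As a share of all covered bases of its list, the window held 0.117% ± 0.00895 in mm1179 KO and 0.103% ± 0.00982 in WT (SD, n = 4 each). The single values were 0.1275%, 0.1061%, 0.1199% and 0.1155% in mm1179 KO 1 to 4, against 0.0903%, 0.1099%, 0.1112% and 0.0992% in WT 1 to 4, and the groups overlapped. The difference of 0.0146 percentage points had an exact permutation p of 0.0857 and an adjusted value of 0.343, and it was 0.0167 in run 1 and 0.0125 in run 2. Inside the promoter domain, peaks covered 21.169, 18.922, 23.291 and 23.739 kb in mm1179 KO 1 to 4, against 19.189, 20.602, 18.940 and 21.362 kb in WT 1 to 4. The mm1179 KO libraries of run 2 covered more of the domain than any WT library, and those of run 1 did not. The mean was 21.8 ± 2.21 kb in mm1179 KO and 20.0 ± 1.15 kb in WT (SD, n = 4 each), with an exact permutation p of 0.257 and an adjusted value of 0.457. The difference was 0.150 kb in run 1 and 3.364 kb in run 2.

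**Figure D4:**
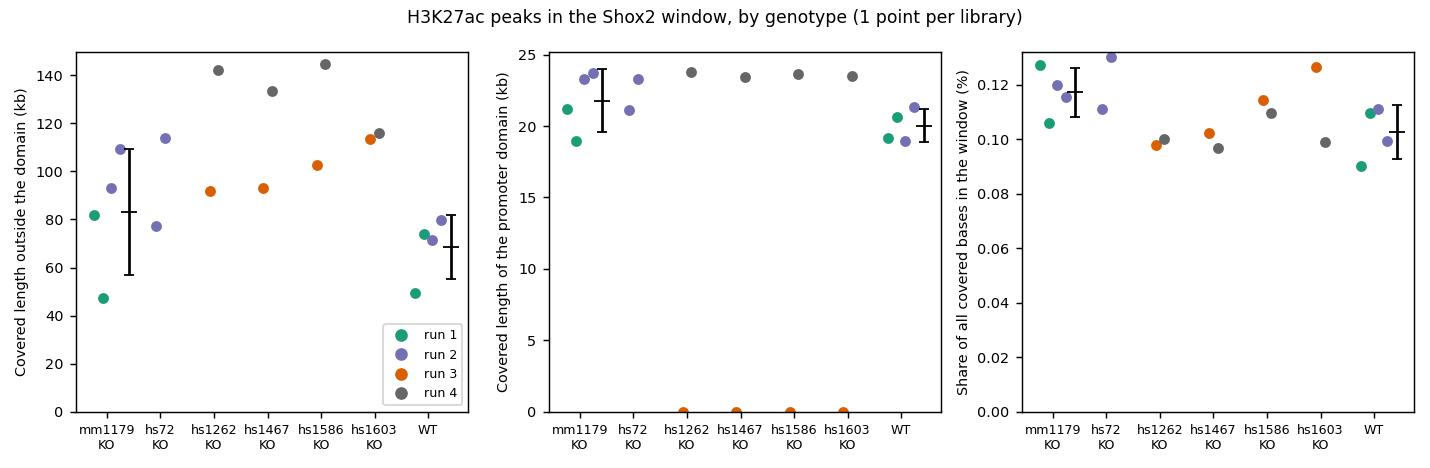
Covered length of the window outside the promoter domain (kb), covered length of the domain (kb) and share of all covered bases of the list that lie in the window (%), with 1 point per library coloured by run; bars give mean and SD for the groups of 4 libraries. The mm1179 KO and WT points overlap in each panel, and in the lines of runs 3 and 4 the run 3 point is at 0 for the domain.

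Over the 54 regions, 31 were called in as many mm1179 KO as WT libraries, 15 in 1 more mm1179 KO library and 5 in 1 fewer. No genome-wide share was taken for a difference of 1 library, so 15 against 5 is not read as a trait of the window. Of the 54, also 31 were called in between 1 and 7 of the 8 libraries and could differ. None was called in all 4 mm1179 KO and no WT library, against 0.0541% of such regions in the genome, and none in all 4 WT and no mm1179 KO library, against 0.12%. By Fisher's exact test, adjusted by Benjamini-Hochberg over 35098 regions, the calls were 0 in the window and 0 in the genome, and at an unadjusted p under 0.05 they were 0 in the window and 61, or 0.174%, in the genome. With 4 against 4 libraries the exact Fisher p cannot go below 0.0286, and with 61 regions at that level no adjusted p could pass, so the absence of calls follows from the design. The 3 regions whose calls differed by 2 libraries were all higher in mm1179 KO, or 9.68% of the 31, against 8.21% in the genome. They were 66418560 to 66420580 and 66463540 to 66467162, each called in 2 mm1179 KO and 0 WT libraries, and 66969271 to 66972428, called in 4 mm1179 KO and 2 WT libraries. Each had an unadjusted exact Fisher p of 0.429. No region was lower by 2 or more libraries in mm1179 KO, against 10.1% in the genome.

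The hs72 KO forelimbs, both of run 2, had 35 and 45 peaks in the window, against 37 and 35 in WT 3 and 4 of the same run. Their peaks covered 98.569 and 137.353 kb, against 90.446 and 100.954 kb in WT 3 and 4, so that hs72 KO 1 lay between the WT libraries and hs72 KO 2 above both. The domain was covered over 21.096 and 23.285 kb in hs72 KO libraries, against 18.940 and 21.362 kb in WT 3 and 4. No region called in all 4 WT and mm1179 KO libraries of run 2 was uncalled in both hs72 KO libraries, 0 of 25, against 1.05% in the genome. None of the 9 regions uncalled in those 4 libraries was called in both hs72 KO libraries, against 2.61%. The difference between hs72 KO and WT was not tested, and an exact permutation of 2 against 2 libraries cannot go below 0.333.

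The hs1262 KO libraries were set against the other 3 lines of runs 3 and 4, because the element they lack is tied to Shox2. They held 29 and 50 peaks in the window, against 32 and 48 in hs1467 KO, 30 and 52 in hs1586 KO and 34 and 45 in hs1603 KO, with the run 3 library first in each pair. Covered length was 91.661 and 166.067 kb in hs1262 KO, against 93.229 and 156.924 kb in hs1467 KO, 102.503 and 168.571 kb in hs1586 KO and 113.577 and 139.372 kb in hs1603 KO. In run 3 the hs1262 KO library had the lowest value of the 4 in both measures, and in run 4 the second highest. As a share of all covered bases of the list, the window held 0.0979% and 0.100% in hs1262 KO, against 0.103% and 0.0967% in hs1467 KO, 0.114% and 0.110% in hs1586 KO and 0.127% and 0.0989% in hs1603 KO.

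A single region of the window was uncalled in both hs1262 KO libraries and called in all 6 libraries of the other 3 lines. It was chromosome 3 from 66741255 to 66744995, 3741 bp wide and 22.444 kb below the promoter domain, which makes it the second nearest consensus region to the domain on that side. The 1 region of 23 was 4.35%, against 0.142% of the regions so compared in the genome, or 27 of 19015. The same count was 0 of 21 in hs1467 KO, 0 of 23 in hs1586 KO and 0 of 21 in hs1603 KO, against 0.134%, 0.19% and 0.211% in the genome. In the libraries that called it, the percentile was 72.9 and 22.8 in hs1467 KO, 38.2 and 64.0 in hs1586 KO and 64.3 and 59.6 in hs1603 KO, with the run 3 library first. The nearest peak of hs1262 KO 1 was 71.5 kb away and that of hs1262 KO 2 was 18.1 kb away. The region was not stable elsewhere, since it was also uncalled in mm1179 KO 2, hs72 KO 1, WT 3 and WT 4. It was called at percentiles of 51.3, 32.7 and 52.1 in mm1179 KO 1, 3 and 4 and 62.6 in hs72 KO 2, against 5.92 and 36.0 in WT 1 and 2. WT forelimbs thus called it in 2 of 4 libraries, at low or middle ranks.

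**Figure D5:**
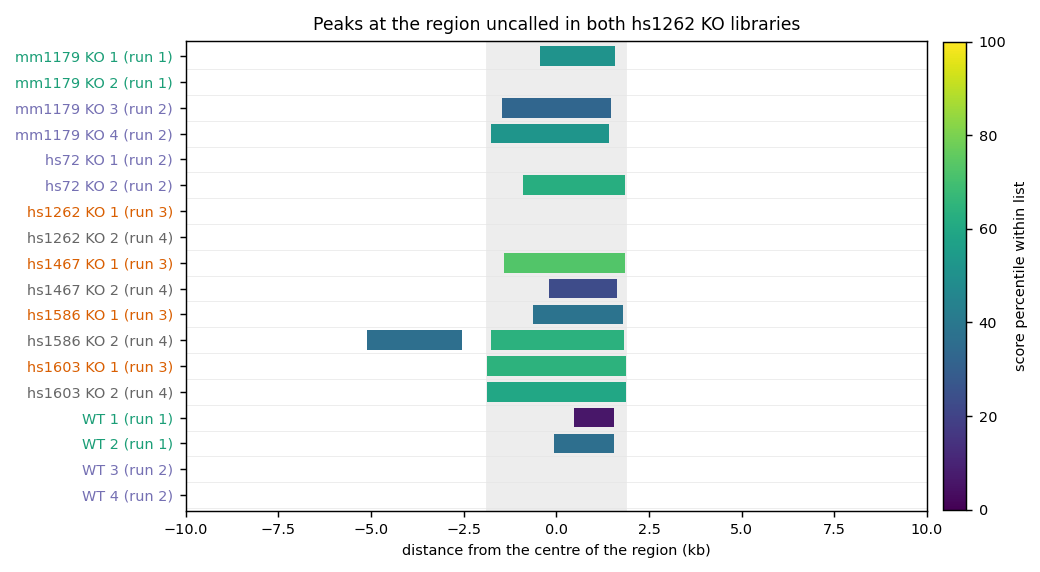
Peaks around the region uncalled in both hs1262 KO libraries, by distance from its centre (kb), with colour giving the score percentile within the list and shading the region itself. The 6 libraries of hs1467 KO, hs1586 KO and hs1603 KO hold a peak in the shaded stretch, and both hs1262 KO libraries, mm1179 KO 2, hs72 KO 1, WT 3 and WT 4 do not.

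The genome was also cut into tiles of 500 bp, each taken as called where 250 bp or more lay under peaks. On these, 4 of the 133 tiles called in the other 3 lines were uncalled in both hs1262 KO libraries. That is 3.01%, against 0.156% in the genome. The count was 0 in hs1467 KO, hs1586 KO and hs1603 KO, against 0.389%, 0.321% and 0.445% in the genome. The 4 tiles formed a stretch of 1.5 kb from 66743001 to 66744500, inside the region above, and a tile from 66764501 to 66765000 in the region next to the domain. That region was called in hs1262 KO 2, by a peak from 66763138 to 66764608 that reached into the tile but covered less than 250 bp of it. Stretches of at least 1.5 kb were 16 of the 120 found for hs1262 KO over the genome, where the longest had 4 tiles. The count in the window was 0 when peaks scoring under 100 were left out and 0 when all lists were cut to equal length. The region itself was also no longer singled out under those settings, nor when a call needed 50% of the region covered. No setting could change the hs1262 KO side, since neither library had a peak in the region. The other lines changed: scores there were 75.14 in hs1467 KO 2 and 74.93 in hs1586 KO 1, both under 100. The peak of hs1467 KO 2 was 1833 bp wide in a region of 3741 bp. In the opposite direction, 0 of 2210 tiles were called in both hs1262 KO libraries alone, against 0.0154% in the genome, and 1 of 2206 in hs1467 KO, from 66762501 to 66763000, against 0.0147%. The counts were 0 of 2204 in hs1586 KO, against 0.0094%, and 0 of 2193 in hs1603 KO, against 0.00735%. The position of the deleted hs1262 element is not among the sources used, so whether this stretch overlaps it was not tested. The difference between the lines was not tested.

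Single libraries also lacked stretches that all others of their run called. Tiles that only hs1262 KO 1 lacked in its run were 10 of 149, or 6.71%, against 6.54% in the genome, and those that only hs1262 KO 2 lacked were 12 of 249, or 4.82%, against 2.69%. In run 3 the count was 14 of 153, or 9.15%, in both hs1467 KO 1 and hs1586 KO 1, against 10.6% and 8.03%. It was 4 of 143, or 2.8%, in hs1603 KO 1, against 11.2%. In run 4 it was 9 of 246, or 3.66%, in hs1467 KO 2, against 3.5%, and 6 of 243, or 2.47%, in hs1586 KO 2, against 5.02%. It was 28 of 265, or 10.6%, in hs1603 KO 2, against 8.86%. In run 1 it was 12.7% in WT 1, against 7.18%, and 0.962% in WT 2, against 3.42%. It was 1.9% in mm1179 KO 1, against 4.63%, and 16.3% in mm1179 KO 2, against 15.1%. In run 2 it was 15.6% in WT 3, against 10.5%, 3.57% in WT 4, against 3.1%, and 8.16% in hs72 KO 1, against 6.29%. It was 0% in mm1179 KO 3, mm1179 KO 4 and hs72 KO 2, against 2.76%, 0.673% and 2.16%. The longest stretch for hs1262 KO 1 was 2.5 kb from 66742501 to 66745000, overlapping the region described above, while for hs1262 KO 2 it was 2 kb from 67296501 to 67298500, at the far end of the window. The longest for hs1467 KO 1 was 3 kb from 66218001 to 66221000, and for hs1586 KO 1 it was 2.5 kb from 66448501 to 66451000. For hs1603 KO 1 it was 2 kb from 66282001 to 66284000. The longest gaps of the run 3 libraries thus ran from 2 to 3 kb. Each is a stretch that 1 library lacked, another measure than a stretch uncalled in both libraries of a line. In run 4 the longest was 2 kb in hs1467 KO 2, from 66407501 to 66409500, 1.5 kb in hs1586 KO 2, from 66323501 to 66325000, and 2 kb in hs1603 KO 2, from 66418501 to 66420500. Among the libraries of runs 1 and 2, the longest was 2.5 kb in WT 1, from 66212001 to 66214500, and 1.5 kb in each of mm1179 KO 2, hs72 KO 1, WT 3 and WT 4. It was 0.5 kb in mm1179 KO 1 and in WT 2. In mm1179 KO 3, mm1179 KO 4 and hs72 KO 2 there was none.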

How the data were processed

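H3K27ac peak lists of 18 ChIP libraries were used, 1 per library; the 18 input samples were not used here. Per the submitters' processing notes, which give no roles, the software comprised MACS 1.4.2, Bowtie 0.12.8, cutadapt 1.1, bcl2fastq 2.17 and CASAVA, on mm9. A deposited list holds the place of every peak with 1 score. The authors' score ran from 40 to 3233.06, is the peak's own value and was used only to filter or rank peaks within a list, as a mid-rank percentile. No 2 lists were identical. Runs were read from tags of the lists and are treated as technical batches.

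A consensus region counted as called in a library with 1 bp or more of overlap with a peak. Named regions were the promoter domain, the 10 others with the highest mean WT percentile, regions called in all libraries of mm1179 KO or of WT and none of the other, the longest stretch uncalled in each library alone among its run, and stretches of at least 3 tiles uncalled in a line. Where fewer tiles, or regions uncalled in a line, are named, they were chosen after their values were seen. Members and lists were chosen with earlier results of these data known. Alternatives were to leave out peaks scoring under 100, to keep the top 26550 peaks per list, other overlaps and tiles, runs alone, the replicate number as a block and leaving out replicates. The code was checked by removing calls of picked tiles and regions from the real data and recovering them, and on small made-up examples. Such a check was bound to find what was removed and does not measure the error rates of the tests. The scripts ran on Python 3.11.15 with matplotlib 3.10.9, scipy 1.17.1 and numpy 2.4.6. Positions count from 1. The RefSeq table is of another build, so it gave gene order and the promoter sequence, and none of its coordinates.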

Additional observations from a re-analysis of the deposited data

How the results depend on the processing

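Of 114 recomputed values, 97 had the same sign and call as reported or a count within 1.5 times of it, 16 counts moved further and 1 difference passed the threshold. That difference was the covered length of the window in mm1179 KO minus WT, which was 16.2 kb in all libraries and 6.72 to 29.0 kb with a replicate left out, with an unadjusted exact permutation p of 0.0286 without mm1179 KO 2. Leaving out a replicate gave differences of 0.250 to 6.17 peaks, 0.0105 to 0.0184 percentage points of the covered bases and 1.104 to 2.71 kb of the domain. Same-numbered mm1179 KO and WT libraries share a run and a number. Their deviations correlated at 0.0135 to 0.110, not all above 0.1, and 2 of 4 mm1179 KO libraries correlated best with their own number, so the number was not taken as a pairing. Correlations of mm1179 KO with WT libraries were positive within a run and between -0.0160 and -0.108 across runs. No other pairs of libraries were compared. Permuting within runs gave an exact p of 0.556 for peaks, 0.278 for covered length, 0.111 for the share and 0.167 for the domain, with 0.0556 the smallest possible. With the replicate number as a block, the exact permutation p was 0.75 for peaks, 0.375 for covered length, 0.25 for the share and 0.25 for the domain, with 0.125 the smallest possible. The block, single-run and within-run tests could not pass 0.05, so their unchanged calls show nothing about stability. Counts that stayed at 0 between mm1179 KO and WT concern calls seen in 0.12% and 0.0541% of compared genome regions, so they show little as well. With peaks under a score of 100 left out, 4 of 38 regions were called in all 18 libraries in place of 12 of 54. The counts for hs1262 KO were then 0 tiles and 0 of 15 regions, against 0.0513% of regions in the genome. Equal list lengths also gave 0 tiles and 0 of 14 regions, against 0.128% of regions in the genome. A call on 50% of the region gave 0 of 21 regions, against 0.14%. Tiles of 1000 bp gave 2 for hs1262 KO and 1 for hs1467 KO, with no genome share taken. Without replicate 1 or 2, which leaves 1 library per line, tiles numbered 12 and 10 in hs1262 KO, 9 and 14 in hs1467 KO, 6 and 14 in hs1586 KO, and 28 and 4 in hs1603 KO. These are the single-library counts within run 4 and run 3, given above with the tiles compared and the genome shares. The settings for regions in hs1262 KO and run 3 were chosen after seeing the data. Regions uncalled in run 3 were 5 of 9 under a minimum score of 100, against 31.9% in the genome, 5 of 15 under equal list lengths, against 23.4%, and 4 of 8 under 50% coverage, against 27.2%. Depth is unknown, so how far it sets peak width and the number of weak peaks was not tested.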
